A study of Sus scrofa with 20 samples.

Results

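The miR-15 and miR-16 family was followed in blood mononuclear cells of pigs before and 6 h after a brain bleed. It was chosen by name: the entries ssc-miR-16, ssc-miR-15b and ssc-miR-15a in the counts against pig miRNAs, and hsa-miR-16-5p, hsa-miR-15b-5p, hsa-miR-15a-5p, hsa-miR-15b-3p and hsa-miR-16-1-3p when those libraries were counted against human miRNAs. These are 8 of 892 entries, 3 of 284 in the pig table and 5 of 608 in the human table. All 8 had enough reads to be tested. The 2 tables count largely the same reads: for miR-16, miR-15b and miR-15a they differed by at most 2 reads in any library, so the human entries of these 3 are no second measurement.

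The RNA came from peripheral blood mononuclear cells (PBMCs), which are mainly lymphocytes and monocytes. The pigs were female American Yorkshire, aged 80 to 90 days and weighing 36 to 41 kg. The 10 ICH libraries came from blood taken 6 h after intracerebral hemorrhage, modelled by injecting 2 to 4 mL of the animal's own blood through a burr hole into the frontal white matter. The 10 Control libraries came from blood taken just before the injection and are labelled untreated. Replicate numbers 1 to 10 occur in both groups. No sham-operated pigs were analysed here, so surgery, handling and the passage of time cannot be told apart from the bleed. Pig-reference depth was 896960 to 2103685 reads in ICH and 949545 to 2091205 reads in Control. The leukocyte miRNAs used as PBMC markers were plentiful, with summed levels of 26693 to 47006 CPM in ICH and 31136 to 56969 CPM in Control (CPM, pig-reference read counts scaled to a common library total), while the liver marker miR-122 stayed at or below 30.1 CPM.

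A miRNA hairpin is cut into a 5p and a 3p strand, and usually the strand that is kept in the silencing complex, here the 5p, is far more abundant than its partner. miR-15a, miR-15b and miR-16 share their seed, the bases that pair with target mRNAs, and are known for restraining cell cycle genes and BCL2, an inhibitor of cell death; loss of the miR-15a and miR-16 locus is a classic lesion of human chronic lymphocytic leukemia. In human blood work miR-16 is also known as an abundant red cell miRNA and has often served as a reference for scaling. In the pig genome (Sscrofa11.1, RefSeq) the hairpins lie in 2 clusters. The miR-15a hairpin is on chromosome 11 at 17757463 to 17757541, with a miR-16 hairpin 64 bases further along at 17757606 to 17757684, inside no other annotated gene. The miR-15b hairpin is on chromosome 13 at 100083172 to 100083269, followed after 59 bases by another miR-16 hairpin at 100083329 to 100083405, and both lie within the interval of SMC4, a gene for a subunit of the condensin complex. Mature miR-16 can come from either cluster, so its count does not tell the 2 loci apart, and since the 3 miRNAs resemble each other and the counting rule is not given here, how reads were divided among them is uncertain.

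miR-16 was the most heavily read member, followed by miR-15b and then miR-15a, in all 20 libraries. Together the 3 pig entries took 0.220% ± 0.077 of reads in ICH and 0.268% ± 0.072 in Control (SD, n = 10 each). Of these reads, miR-16 made up 65.7% ± 2.15 in ICH and 66.4% ± 1.56 in Control, miR-15b 27.1% ± 2.48 in ICH and 27.4% ± 2.27 in Control, and miR-15a 7.15% ± 0.76 in ICH and 6.20% ± 1.01 in Control. miR-16 stood 49th in abundance among the 179 pig miRNAs tested. These are orders of read numbers, which are not scaled for length.

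**Figure D1:**
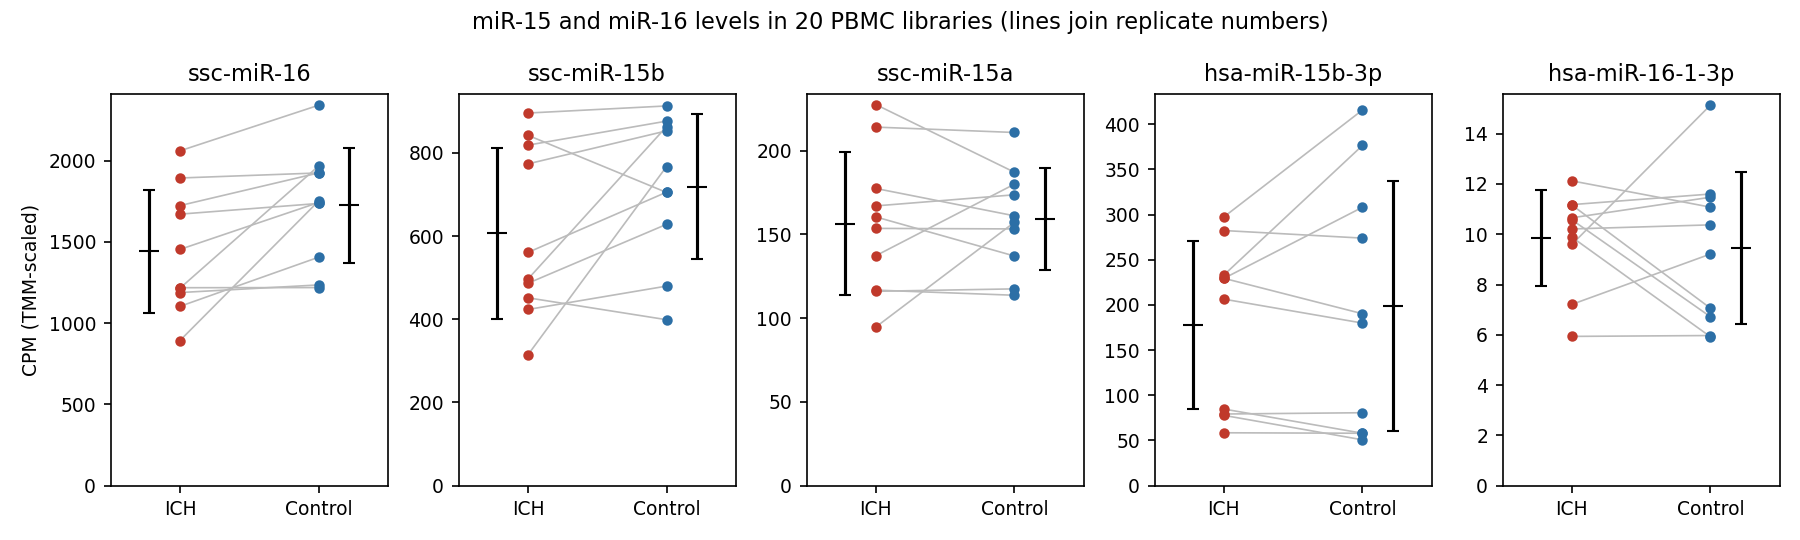
Level of 5 family entries in each library, in TMM-scaled CPM on an axis that starts at 0; red points are ICH, blue points Control, grey lines join equal replicate numbers, and black bars give mean and SD (n = 10). ssc-miR-16 was lower in ICH in 10 of 10 numbers yet the groups overlap, and hsa-miR-15b-3p splits by replicate number and not by group.

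The first comparison asked whether any member differed between blood after and blood before ICH. No member passed the test. miR-16 and miR-15b were lower in ICH by point estimate and miR-15a lay near 0, but 0 of 3 pig entries and 0 of 5 human entries had an adjusted p under 0.05 (edgeR quasi-likelihood test, Benjamini-Hochberg adjustment). This test called 0% of all pig-reference and 3.67% of all human-reference miRNAs. With the replicate number as a block it called 21.8% and 19.2% of them, again with 0 members. DESeq2 and limma voom without the block also called 0 members. Of all miRNAs, DESeq2 called 11 of 179 pig-reference and 13 of 245 human-reference entries, and limma voom called 3 and 9. At an unadjusted edgeR p under 0.05, 0 members passed without the block, against 19.6% of all pig-reference and 18.4% of all human-reference miRNAs. With the block ssc-miR-16, ssc-miR-15b and hsa-miR-16-5p did, as did 34.1% of all pig-reference and 31% of all human-reference miRNAs. The members' median log2 fold change was -0.25 in the pig-reference and -0.17 in the human-reference counts, against medians of -0.03 and 0.04 over all miRNAs tested. In bulk libraries such as these, fewer cells of a type and less RNA per cell cannot be told apart.

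In the pig-reference counts ssc-miR-16 had 893 CPM in the lowest, a median of 1336 and 2061 in the highest ICH library, against 1219, 1747 and 2341 CPM in Control libraries (here and for all single entries, CPM of TMM-scaled libraries). The group means were 1442 ± 380.1 CPM in ICH and 1725 ± 352 CPM in Control (SD, n = 10 each). The groups overlapped over most of their range, although within replicate numbers ICH was the lower one in 10 of 10, a count that 3.91% of tested pig miRNAs reached. The closest number was 8, at 1218 CPM in ICH and 1219 CPM in Control, and the widest was number 1, at 893 CPM in ICH and 1751 CPM in Control. As a plain share of reads ssc-miR-16 was lower in 8 of 10 numbers, as was hsa-miR-16-5p in CPM; at least 8 of 10 numbers were lower for 22.9% of pig-reference and 15.1% of human-reference miRNAs.

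The log2 fold change of ssc-miR-16 was -0.26 ± 0.15 (SE, edgeR adjusted p = 0.329), with a 95% interval of -0.57 to 0.06. With the replicate block it was -0.27 ± 0.10 (adjusted p = 0.0555), just short of the threshold. With the block it passed the threshold when library totals replaced TMM (-0.32, edgeR adjusted p = 0.0341), a fit that called 20.1% of all miRNAs. This change of scaling also moved the median log2 fold change of all pig-reference miRNAs by -0.048. With the block ssc-miR-16 also passed in DESeq2 (-0.25, adjusted p = 0.0491), an alternative chosen after seeing the data, which called 25.7%. Across tools and scalings, over the 6 settings with the block the adjusted p of ssc-miR-16 ran from 0.0341 to 0.0708. For hsa-miR-16-5p, nearly the same reads scaled within the human-reference table, the log2 fold change was -0.19 ± 0.14 without the block (edgeR adjusted p = 0.462). With the block it was -0.21 ± 0.096 (edgeR adjusted p = 0.14). With library totals and the block the edgeR adjusted p was 0.0398, in a fit that called 15.9% of all miRNAs. There the median log2 fold change of all human-reference miRNAs moved by -0.11. Without replicate number 4 the blocked human-reference fit also called hsa-miR-16-5p (-0.27, edgeR adjusted p = 0.0345) and hsa-miR-15b-5p (-0.31, adjusted p = 0.0452), along with 24.9% of all miRNAs. The estimate lay below 0 in every scaling, filter and tool tried for miR-16, from -0.33 to -0.15 across both tables, leaving out single replicate numbers included.

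miR-15b, made from the SMC4 locus, had a lowest, median and highest level of 315, 529 and 896 CPM in ICH libraries, against 399, 737 and 913 CPM in Control libraries. Its means were 607 ± 206 CPM in ICH and 719 ± 174 CPM in Control (SD, n = 10 each), and it was lower in ICH in 8 of 10 numbers. The difference was within the spread between libraries, with a log2 fold change of -0.25 ± 0.19 (SE, edgeR adjusted p = 0.487) and a 95% interval of -0.64 to 0.15. With the replicate block the log2 fold change was -0.27 ± 0.12 (edgeR adjusted p = 0.126), with a 95% interval of -0.56 to 0.007. Number 1 had the widest gap, at 315 CPM in ICH and 767 CPM in Control, while numbers 4 and 8 were the 2 in which ICH was higher.

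miR-15a, the partner of miR-16 on chromosome 11, was the scarcest 5p member. Its lowest, median and highest levels were 94.7, 157 and 227 CPM in ICH libraries, against 114, 159 and 211 CPM in Control libraries, so the ICH libraries spread beyond the Control range at both ends. The log2 fold change was -0.02 ± 0.15 (SE, edgeR adjusted p = 0.915), with a 95% interval of -0.35 to 0.30. Its sign was negative in the pig-reference and positive in the human-reference fit (0.04 ± 0.15), and it also changed with the scaling, so miR-15a has no direction here. It was read 93 to 509 times per library, and changes of a size inside that interval are not excluded. With the replicate block the log2 fold change of ssc-miR-15a was -0.04 ± 0.10 (SE, edgeR adjusted p = 0.765), with a 95% interval of -0.28 to 0.19.

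**Figure D2:**
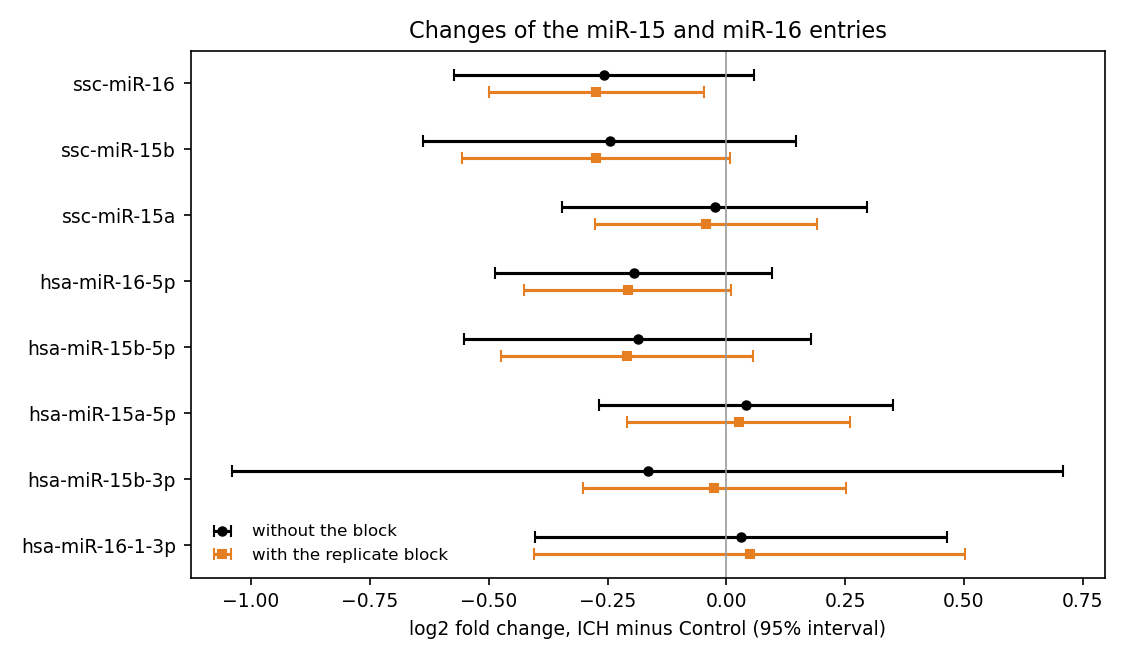
log2 fold change (ICH minus Control) of the 8 entries with 95% intervals, from edgeR without the replicate block (black circles) and with it (orange squares). Intervals without the block all cross 0; with the block that of ssc-miR-16 alone does not, before adjustment for the number of miRNAs tested (intervals use the residual degrees of freedom alone), and the interval of hsa-miR-15b-3p is the one that narrows most.

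Ratios between members within a library need no scaling between libraries, and here a difference did appear. The ratio of miR-15a to miR-16 was 1.17-fold higher in ICH. How often ratios of other miRNA pairs differ this much was not computed, so the difference is not shown to be particular to this family. In log2 units ssc-miR-15a over ssc-miR-16 ran from -3.42 to -2.98 with a median of -3.23 in ICH libraries, and from -3.80 to -2.98 with a median of -3.44 in Control libraries. The means were -3.20 ± 0.14 in ICH and -3.43 ± 0.20 in Control (SD, n = 10 each), a difference of 0.23 that was higher in ICH in 9 of 10 replicate numbers. A two-sided permutation test gave p = 0.00951, or 0.038 adjusted over the 8 ratios computed, of which 3 repeat the same reads. Here and below the repeats entered the adjustment as separate ratios, which affects the adjusted p. An adjustment without the repeats was not made. Within replicate numbers the exact sign-flip test gave p = 0.00391, adjusted 0.0234, with a 95% interval of 0.12 to 0.33 for the difference.

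The change was not even across the numbers. It was 0.40 in number 2, 0.38 in number 5 and 0.33 in number 10, the highest 3, and close to 0 in numbers 4 (-0.0004) and 8 (0.0063). The permutation test that ignores the numbers was fragile: with 1 replicate number left out at a time, its adjusted p was over 0.05 without number 1, 2, 3, 6, 7, 9 or 10, at 0.0529 to 0.11, and under it without number 4, 5 or 8. The exact sign-flip test stayed under 0.05 in all 10 of these, with an adjusted p of 0.0156 to 0.0469, the upper end close to the threshold. The difference itself ran from 0.21 to 0.25. The authors' filter took more from the scarcer miR-15a, leaving a median of 90.4% of its reads against 98.4% for miR-16.

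For the ratio of miR-15b to miR-16 no difference was found. In log2 units it averaged -1.28 ± 0.18 in ICH and -1.28 ± 0.16 in Control (SD, n = 10 each), and the permutation test gave p = 0.962, which stayed the same after adjustment over the 8 ratios. It was higher in ICH in 4 of 10 numbers. The 95% interval of the difference within numbers was -0.13 to 0.12, which bounds any common change. miR-15a over miR-15b averaged -1.92 ± 0.25 in ICH and -2.15 ± 0.33 in Control, higher in ICH in 8 of 10 numbers, and did not pass after adjustment (permutation test, p = 0.0942, adjusted 0.188; exact sign-flip test, p = 0.0371, adjusted 0.0742). Without number 8, whose Control library had the highest value, its adjusted permutation p was 0.0297, and the adjusted sign-flip p passed in 2 of 10 such leave-outs. This comparison is also the test of whether the 2 ratios to miR-16 changed by different amounts, so such a difference was not shown.

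**Figure D3:**
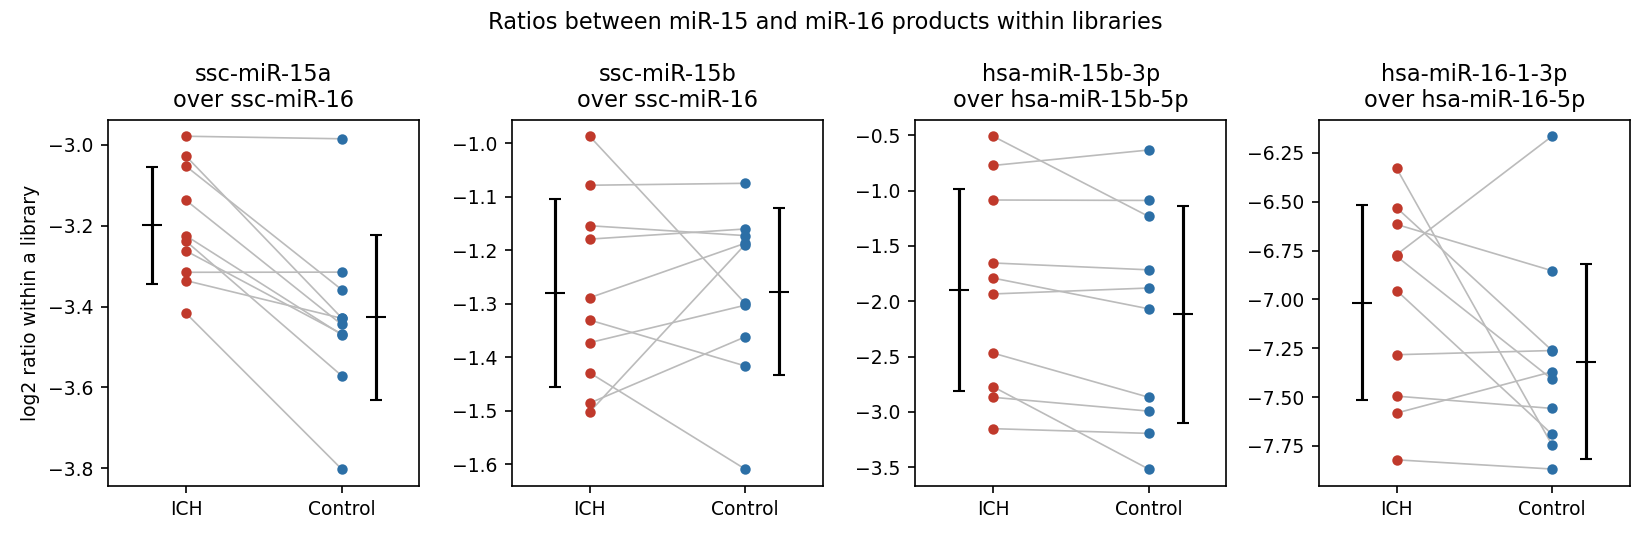
log2 ratio of 2 products within each library, for 4 of the 8 ratios computed; red points are ICH, blue points Control, grey lines join equal replicate numbers, and black bars give mean and SD (n = 10). The miR-15a to miR-16 ratio is higher in ICH in 9 of 10 numbers, the miR-15b to miR-16 ratio has the same mean in both groups, -1.28, and the ratio of the miR-15b arms spreads most.

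The partner strand of miR-15b gave the widest spread of the family, and that spread followed the replicate number and not the bleed. hsa-miR-15b-3p, the 3p strand of the SMC4 hairpin, ran from 58.5 CPM through a median of 218 to 297 CPM in ICH libraries, and from 50.7 through 185 to 416 CPM in Control libraries, an 8.19-fold range over all 20. Its log2 fold change was -0.17 ± 0.42 (SE, edgeR adjusted p = 0.892), and -0.03 ± 0.12 with the replicate block (adjusted p = 0.936). The 8 lowest libraries were the ICH and Control libraries of only 4 numbers, 2, 5, 8 and 9, at 50.7 to 84.8 CPM, and the other 12 libraries lay at 180.0 CPM or more. No library fell between, a gap of 2.12-fold.

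Within a number the ICH and Control levels differed less than the levels of different numbers did (SD of the log2 change 0.43, SD of the means of the numbers 1.03). hsa-miR-15b-3p had 84.8 CPM in ICH and 58.0 CPM in Control for number 2, 79.3 CPM in ICH and 80.7 CPM in Control for number 5, 77.8 CPM in ICH and 50.7 CPM in Control for number 8, and 58.5 CPM in ICH and 58.0 CPM in Control for number 9. Number 10 was highest in both groups, at 297 CPM in ICH and 416 CPM in Control, and number 7 had 233 CPM in ICH and 377 CPM in Control. Numbers 1, 3, 4 and 6 had 206 to 282 CPM in ICH and 180.0 to 308 CPM in Control. The libraries of a number thus stayed on the same side of the gap in both groups, in 10 of 10 numbers. The gap was placed after these values were seen, so this count describes the split and does not test it. How many other miRNAs split this way was not counted.

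**Figure D4:**
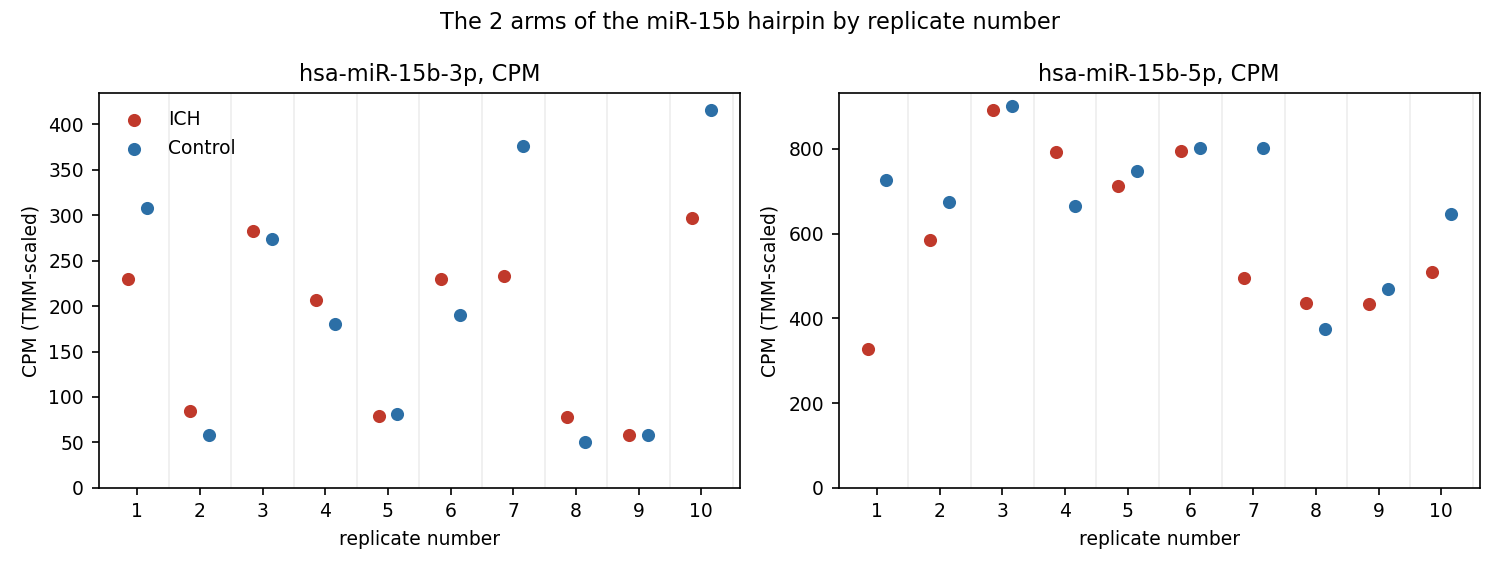
TMM-scaled CPM of hsa-miR-15b-3p (left) and hsa-miR-15b-5p (right) against replicate number, ICH in red and Control in blue, on axes that start at 0. For the 3p strand numbers 2, 5, 8 and 9 lie at 50.7 to 84.8 CPM in both groups and the other numbers at 180.0 CPM or more; the 5p strand shows no such gap.

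The 5p strand of the same hairpin did not follow. hsa-miR-15b-5p of numbers 2 and 5 was 586 and 713 CPM in ICH and 674 and 747 CPM in Control, within the range of 327 to 902 CPM over all libraries, while numbers 8 and 9 were among the lower ones at 376 to 470.1 CPM. Counted per 100 reads of the 5p strand, the 3p strand had 14.5 reads in ICH and 8.60 in Control for number 2, 11.12 in ICH and 10.8 in Control for number 5, 17.8 in ICH and 13.5 in Control for number 8, and 13.5 in ICH and 12.3 in Control for number 9. At the other end it had 70.2 in ICH and 42.5 in Control for number 1, 58.5 in ICH and 64.4 in Control for number 10, and 47.1 in ICH and 47.0 in Control for number 7. Numbers 3, 4 and 6 had 26.1 to 31.7 in ICH and 23.8 to 30.4 in Control.

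The log2 ratio of the 3p to the 5p strand of miR-15b averaged -1.90 ± 0.91 in ICH and -2.12 ± 0.98 in Control (SD, n = 10 each), a difference far inside the spread between libraries (two-sided permutation test, p = 0.609, adjusted 0.811). Within numbers it was higher in ICH in 8 of 10, and the exact sign-flip test gave p = 0.0566, adjusted 0.0906. The SD of this ratio between the means of the numbers was 0.94, against an SD of 0.31 for the change within numbers.

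The share of variance lying between replicate numbers (the intraclass correlation of log2 CPM after removing the group means) was 0.917 for hsa-miR-15b-3p, first among the 245 human-reference miRNAs tested, whose median was 0.431. The same share was 0.633 for hsa-miR-15a-5p, 0.582 for hsa-miR-16-5p, 0.505 for hsa-miR-15b-5p and 0.331 for hsa-miR-16-1-3p. The SD of log2 CPM between libraries of a group was 1.05 for hsa-miR-15b-3p, the second widest of all 245, and 0.32 to 0.43 for the other 4. The level of this strand comes from reads matched to the human name, since only the human-reference counts were used for it.

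**Figure D5:**
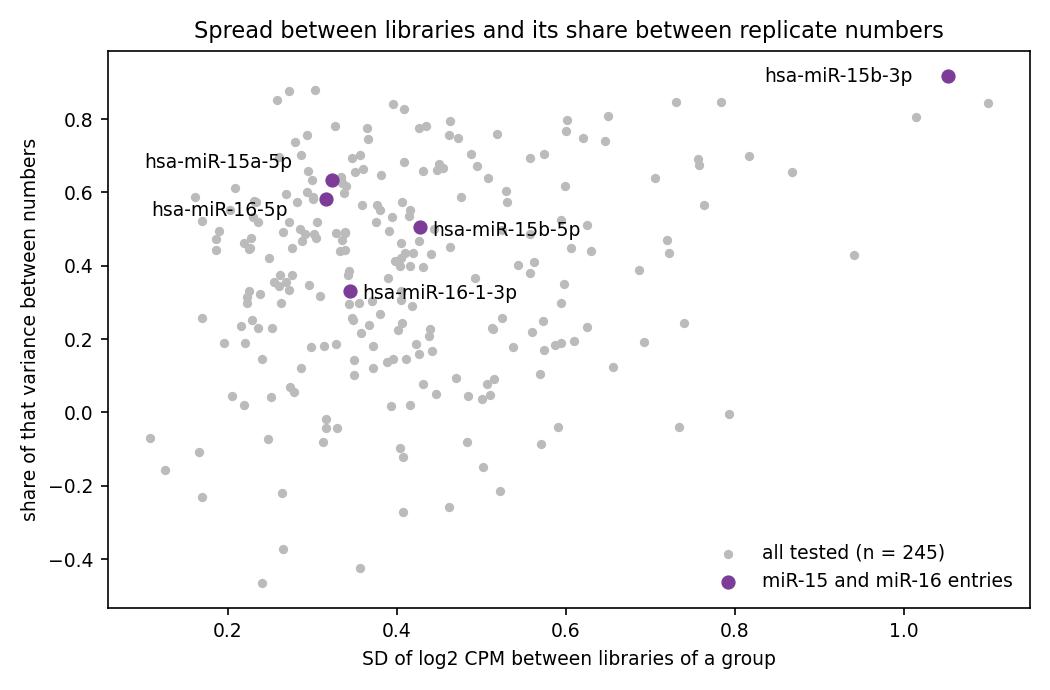
Each point is a human-reference miRNA (n = 245); the horizontal axis is the SD of log2 CPM between libraries of a group and the vertical axis the share of that variance between replicate numbers, with values under 0 where equal numbers were less alike than different ones. The purple points are the 5 family entries; hsa-miR-15b-3p lies at 1.05 and 0.917, and the others between 0.32 and 0.43 on the horizontal axis.

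The partner strands of miR-16 differ between its 2 hairpins and so can tell human loci apart, in human miR-16-1 lying beside miR-15a and miR-16-2 beside miR-15b. In the pig annotation the symbols run the other way, with MIR16-2 beside miR-15a and MIR16-1 beside miR-15b, each with both names as synonyms. Which pig hairpin the reads of either human name came from was not tested. hsa-miR-16-1-3p was scarce, with 5 to 25 reads per library. Its level was 5.94 to 12.1 CPM with a median of 10.4 in ICH libraries and 5.92 to 15.1 CPM with a median of 9.79 in Control libraries, and its log2 fold change was 0.03 ± 0.21 (SE, edgeR adjusted p = 0.934), with a sign that changed between scalings. The log2 ratio of hsa-miR-16-1-3p to hsa-miR-16-5p averaged -7.02 ± 0.50 in ICH and -7.32 ± 0.50 in Control and did not pass (two-sided permutation test, p = 0.191, adjusted 0.306).

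hsa-miR-16-2-3p had too few reads to be tested, 68 in all ICH and 64 in all Control libraries, beside 133 reads of hsa-miR-16-1-3p in ICH and 142 in Control. Of the reads of both partner strands, hsa-miR-16-1-3p made up 66.2% in ICH (95% exact binomial interval 59.2 to 72.7%) and 68.9% in Control (62.1 to 75.2%), intervals that overlap widely and cover counting error only. The partner strand of miR-15a, hsa-miR-15a-3p, had 12 reads in the ICH and 4 in the Control libraries, with no test.

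Relatives of the family were taken from a fixed list of miRNAs with the same seed (miR-195, miR-424, miR-497 and others) or of the wider group of related miRNAs that includes miR-103 and miR-107. In the pig-reference counts 4 of 7 listed entries had enough reads, and 0 of 4 rose and 0 of 4 fell, with or without the block. These fits called 0% of all pig-reference miRNAs without the block and 21.8% with it. The median with the block was -0.06, against -0.04 over all 179. In the human-reference counts 0 of 3 tested entries, of 11 listed, rose or fell in either fit. There 3.67% of all miRNAs were called without the block and 19.2% with it. The listed entries were matched by name, so they also include untested partner strands beside the strands that carry the seed. These were ssc-miR-424-3p in the pig-reference counts, and hsa-miR-15a-3p, hsa-miR-16-2-3p, hsa-miR-195-3p and hsa-miR-424-3p in the human-reference counts. ssc-miR-103, which is best known for its part in metabolism, was by far the most read relative, at 32133 ± 3371 CPM in ICH and 31414 ± 7072 CPM in Control (SD, n = 10 each; log2 fold change 0.03 ± 0.12 SE). ssc-miR-107 averaged 259.6 CPM in ICH and 265.5 CPM in Control. ssc-miR-195, which carries the same seed, averaged 17.6 CPM in ICH and 20.1 CPM in Control (-0.18 ± 0.28), and ssc-miR-503 averaged 13.9 CPM in ICH and 16.7 CPM in Control (-0.28 ± 0.52).

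The miRNAs whose level tracked miR-16 most closely were found by the SD of their log2 ratio to it over the 20 libraries, among 116 pig miRNAs of at least 100 CPM. For ssc-miR-16 these were ssc-miR-15b (SD 0.16), ssc-miR-106a (0.16) and ssc-miR-17-5p (0.18), against a median of 0.46. For ssc-miR-15b they were ssc-miR-16 (0.16), ssc-miR-30c-5p (0.21) and ssc-miR-106a (0.24). For ssc-miR-15a they were ssc-miR-20b (0.18), ssc-miR-23a (0.19) and ssc-miR-16 (0.21). In the human-reference counts hsa-miR-15b-5p, hsa-miR-17-5p and hsa-miR-106a-5p came first for hsa-miR-16-5p, with SDs of 0.161, 0.163 and 0.165. ssc-miR-15a was number 5 in the order for ssc-miR-16, at 0.21. The measure favours miRNAs that vary little, and as a ratio within a library it hardly depends on the scaling between libraries.

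As a candidate reference for scaling, miR-16 held a middle place. The SD of its log2 CPM between libraries of a group was 0.35 in the pig-reference counts, 81st from the steadiest of 179, close to the median of 0.36. Among 9 pig-reference entries of miRNAs used as blood references that reached 100 CPM, miR-16 included, ssc-miR-191 (0.15), ssc-miR-423-3p (0.15), ssc-miR-24-3p (0.15), ssc-miR-24-1-5p (0.22) and ssc-miR-103 (0.26) were steadier, and ssc-let-7a (0.36), ssc-let-7i (0.36) and ssc-miR-423-5p (0.53) were not.

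Marker miRNAs of blood cells and other tissues were read beside these values. In the pig-reference counts none of the red cell, leukocyte, platelet or brain entries passed without the block, and the counts with the block below stand beside 21.8% of all pig-reference miRNAs called in that fit. The 3 red cell miRNAs miR-451, miR-144 and miR-486 summed to 426 to 1111 CPM in ICH and 102.6 to 860.1 CPM in Control (CPM of library totals), higher in ICH in 9 of 10 numbers, while miR-16 was the lower one in ICH. Of the 3, miR-486 rose with the block (log2 fold change 0.57 ± 0.13 SE, edgeR adjusted p = 0.00398). In the human-reference counts the fits called 3.67% of all miRNAs without the block and 19.2% with it. Of 4 tested human red cell entries, 0 passed without the block, and 2 rose and 0 fell with it. The leukocyte markers had a lower sum in ICH in 9 of 10 numbers, and with the block 2 of 6 tested pig entries fell and 0 rose. In the human-reference counts, 2 of 8 tested leukocyte entries rose and 0 fell without the block, and 2 rose and 1 fell with it. The 2 that rose were both arms of miR-223, a miRNA of myeloid cells, and the 1 that fell was hsa-miR-150-5p, a miRNA of lymphocytes. The platelet-linked entries summed to 1234 to 1967 CPM in ICH and 1316 to 2286 CPM in Control, and with the block 1 of 4 tested pig entries rose and 2 fell, while of 3 tested human entries 1 rose and 0 fell in either fit. The brain-linked miR-128, miR-219a and miR-9 summed to 6660 to 16482 CPM in ICH and 5762 to 10762 CPM in Control, with 1 of 3 higher with the block. Nearly all of that sum was miR-128, at a mean of 9321 CPM over all libraries, against 182 CPM for miR-9 and 7.99 CPM for miR-219a. The untested muscle miRNAs summed to 5.57 to 59.8 CPM in ICH and 2.02 to 9.51 CPM in Control. The part of these markers in the miR-16 and miR-15a values was not tested.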

How the data were processed

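Small RNA libraries were counted against pig and human miRNA names by the authors, who deposited whole-number read counts, a filtered version of each table, and RPM of the filtered counts. Per the submitters' processing notes, bcl2fastq, FastQC and Bowtie were used with Sscrofa11.1, GRCh38 and hg38 (the sources used here do not give versions, the counting rule, the treatment of reads that match several miRNAs, or the filter's rule). The deposited RPM columns each sum to the same total and served only as an alternative.

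Groups and replicate numbers came from the sample titles. The unfiltered counts were tested by the robust quasi-likelihood method of edgeR 4.0.16 under R 4.3.3, after filterByExpr and TMM, with Benjamini-Hochberg adjustment over the 179 pig-reference and 245 human-reference entries that passed the filter on low counts, at a threshold of 0.05. CPM of single entries use TMM-scaled library sizes. Standard errors were derived from the F statistic of each fold change; the 95% intervals use them on the residual degrees of freedom alone, so they are wider than the test, which also borrows information across miRNAs. Ratios between members were taken as log2 after adding 1 to the CPM of library totals, and tested by a two-sided permutation of group labels with 100000 resamples and a fixed seed; the exact sign-flip test within replicate numbers stands beside it. limma 3.58.1 and DESeq2 1.42.0 gave alternatives, the fits were tested on simulated data, and figures used matplotlib 3.10.9.

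The main fit had no block, and the replicate number as a block was the alternative. The deviations of same-numbered libraries from their group means correlated at 0.129 to 0.768 (pig reference) and 0.146 to 0.672 (human reference), all 10 above the preset 0.1 in each, and the series' design text describes a draw before and another after ICH. By this correlation the same-numbered library was the best match for 7 of 10 numbers in each reference, and not for numbers 4, 7 and 8. Number 4 had the lowest correlation in each, at 0.129 (pig reference) and 0.146 (human reference). The numbers were taken to pair the libraries on the preset 0.1 and the design text, so the pairing is less sure for numbers 4, 7 and 8. The labels do not say that each number is 1 animal, so p-values refer to these libraries. Without the block they measure the spread between libraries. With it, and in the sign-flip test, they measure the spread of the changes within numbers. Named miRNAs were the 8 entries, a fixed list of relatives, red cell and other cell type markers, and the 3 miRNAs of at least 100 CPM whose ratio to a member varied least. The entries and lists were chosen with earlier results of these data known. No molecular identifiers were counted, so reads are not independent molecules and intervals on reads cover counting error only. Hairpin positions came from NCBI RefSeq's gene table for Sscrofa11.1, where all 4 hairpins matched by synonym; sequences were not used here.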

Additional observations from a re-analysis of the deposited data

Results flagged for a closer look

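In 34 sets of 10 libraries (the 8 entries, 8 ratios and the family's share of reads, in each group), the gap between the highest or lowest library and the next one, as a part of the whole range, was above Dixon's 95% critical value of 0.466 in 2 sets, about what chance gives at 1 in 20. Both rest on the same reads. In Control replicate 8 the log2 ratio of miR-15a to miR-15b was -1.38, against -2.63 to -2.02 in the other Control libraries for the pig entries, and the human 5p entries gave -1.38 against -2.63 to -2.01. The gap was 0.51 and 0.504 of the range.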

How the results depend on the processing

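The count of called miRNAs depended on the block and the tool. In the pig-reference counts it was 0 without the replicate block and 39 with it; without the block it was 2 with library totals, 11 with DESeq2, 3 with limma voom, 2 with the authors' filtered counts and 3 with limma on RPM, and with the block 36 with library totals, 36 with RLE size factors, 46 with DESeq2, 38 with limma voom and 38 with filtered counts. In the human-reference counts 9 became 47 with the block, 5 with library totals and 5 with limma on RPM, and with the block 39 with library totals, 47 with RLE, 50 with DESeq2, 48 with limma voom and 48 with filtered counts. Leaving out 1 replicate number gave 0 to 14 pig-reference calls without the block and 27 to 59 with it, and 0 to 11 human-reference calls without the block and 32 to 61 with it. The pig-reference count was highest without number 4 in both fits, and the human-reference count without the block was 0 without number 2, 3 or 10 and 2 or 3 without number 1, 7 or 8.

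Signs near 0 turned for the entries without a direction. ssc-miR-15a was 0.021 with no filter on low counts and 0.013 with filtered counts, and -0.075 to 0.068 with 1 number left out. hsa-miR-15a-5p was -0.063 with library totals, -0.083 with these and the block, -0.0060 with RLE and the block, -0.0049 in DESeq2 with the block, -0.013 with no filter and -0.089 with RPM, and -0.052 to 0.080 with 1 number left out. hsa-miR-16-1-3p was -0.091 with library totals, -0.061 with these and the block, -0.0047 with RLE, -0.013 in DESeq2, -0.028 with no filter, -0.0031 with filtered counts and -0.029 with RPM, and -0.079 to 0.078 with 1 number left out; hsa-miR-15b-3p was then -0.26 to 0.060.

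The log2 ratio of miR-15b to miR-16 became 0.0051 with filtered counts in both tables and was -0.039 to 0.031 with 1 number left out (-0.038 to 0.031 in the human entries). miR-15a over miR-16 was then 0.21 to 0.25 (0.21 to 0.26 in the human entries) and miR-15a over miR-15b 0.19 to 0.29 (0.20 to 0.29). The cause of these shifts was not tested. In the human-reference counts library totals moved the median of all miRNAs by -0.11. The block with DESeq2, with limma voom, with filtered counts, and with 1 number left out of a ratio, and filtered counts for the share of reads, were alternatives chosen after seeing the data. The replicate block changed no call of a member or ratio other than those named in the results. hsa-miR-16-1-3p had as few as 5 reads in a library, hsa-miR-15b-3p 49 and miR-15a 93.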

Other observations

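After hsa-miR-15b-3p, the human-reference miRNAs with the largest share of variance between replicate numbers were hsa-miR-106b-3p at 0.881, hsa-miR-361-3p at 0.876 and hsa-miR-210-3p at 0.853, named after their values were seen. Their SDs of log2 CPM between libraries of a group were 0.30, 0.27 and 0.26, against 1.05 for hsa-miR-15b-3p. hsa-miR-183-5p and hsa-miR-182-5p came next, at 0.847 and 0.847, with SDs of 0.78 and 0.73.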
